A study of Mus musculus with 6 samples.

Results

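The miR-23, miR-27 and miR-24 clusters give rise to 7 mature microRNAs (miRNAs) in the deposited table, namely mmu-miR-23a-3p, mmu-miR-23b-3p, mmu-miR-24-3p, mmu-miR-27a-3p, mmu-miR-27b-3p, mmu-miR-24-1-5p and mmu-miR-24-2-5p, called without the prefix mmu below. They were chosen by name, with earlier results of these data known. They are 7 of the 782 mature miRNAs that were above 0 in at least 1 sample, and 818 of the 65087 unique read sequences carry their names. The reads are short RNAs bound to Argonaute (Ago) proteins in mouse brain, isolated with a peptide derived from GW182, a protein that binds Ago. The 6 samples are 3 WT and 3 Tau tg mice, all male, 3 months old and on a C57BL/6J background. Tau tg mice carry a human cDNA for the fragment tau45-230 under the Thy 1.2 promoter, which is active in neurons, and WT mice lack it. The comparison addressed whether Ago in the Tau tg brain holds more short RNAs with toxic seeds, and the clusters are described here for their part in that.

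miRNAs are cut from a hairpin as a duplex whose arms are called 5p and 3p. Ago keeps mainly 1 arm as a guide, and nucleotides 2 to 8 of the guide, the seed, pair with target mRNAs. Each cluster is thought to be transcribed as a single precursor that holds a miR-23, a miR-27 and a miR-24 hairpin in that order. The clusters are known from blood vessels, blood cell development and muscle. In neurons, miR-23 and miR-27 are known repressors of Apaf1, a gene of the apoptosis machinery, and miR-24 is known to repress the proapoptotic gene Bim in other cells.

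The mature sequences are shown because the members differ at few bases and these decide how reads can be told apart. They were taken from RefSeq (GRCm38.p6), except that of miR-23b-3p, which is its most abundant deposited read. Capitals mark the seed, nucleotides 2 to 8.
miR-23a-3p: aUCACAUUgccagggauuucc
miR-23b-3p: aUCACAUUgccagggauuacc
miR-27a-3p: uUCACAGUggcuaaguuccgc
miR-27b-3p: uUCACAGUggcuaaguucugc
miR-24-3p: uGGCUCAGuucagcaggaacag
miR-24-1-5p: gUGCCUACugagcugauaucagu
miR-24-2-5p: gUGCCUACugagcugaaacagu

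The members thus fall into 4 seed groups. Counted from the 5′ end, miR-23b-3p differs from miR-23a-3p by U19A, and miR-27b-3p differs from miR-27a-3p by C19U. A read that ends before position 19 cannot be placed in either cluster. miR-24-3p is identical in both clusters, so its reads cannot be divided, whereas the 5p arms of miR-24 differ and report on each cluster by itself.

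On GRCm38 with the GENCODE M21 annotation, Mir23a, Mir27a and Mir24-2 lie on the plus strand of chromosome 8 within 404 bp, at chr8:84208518-84208921. Mir23a and Mir27a overlap no other annotated gene. Mir24-2 lies opposite Mir3074-2, and it overlaps an exon of the lincRNA gene Gm26532. Mir23b, Mir27b and Mir24-1 lie on the plus strand of chromosome 13 within 792 bp, at chr13:63300484-63301275, inside the protein-coding gene 2010111I01Rik. Mir23b is intronic there. Mir27b falls in an exon of a transcript of that gene annotated as subject to nonsense-mediated decay, and Mir24-1 falls in exons of transcripts of it annotated as nonsense-mediated decay, processed transcript and retained intron. All 3 also lie opposite an intron of Fancc, and Mir24-1 lies opposite Mir3074-1.

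The unit is RPM, a read number after scaling every library to the same size. The samples held between 998248 reads in WT 3 and 6879551 reads in Tau tg 1, and 3 reads correspond to 2.75 RPM and 0.427 RPM in these samples. Such floors cover counting error only. The labels name hippocampus as the source, while the deposited protocol gives cortex and hippocampus combined. All 6 miRNAs of a neuron list, led by miR-124-3p, were detected, and their summed level was between 150941 and 173088 RPM in every sample. The summed level was 8191 to 15397 RPM for an endothelium and vessel wall list, 8442 to 13997 RPM for an oligodendrocyte list and 2091.5 to 2921 RPM for a microglia and blood leukocyte list. It was 474 to 1129.8 RPM for a red blood cell list, of which miR-486a-5p was not listed. The choroid plexus list, nearly all miR-204-5p, was the least even, at 1789, 1947 and 4958 RPM (WT 1 to 3) and 8449, 1980.4 and 3834 RPM (Tau tg 1 to 3). None of the 24 listed miRNAs tested had a p under 0.05 between the groups before adjustment by limma, beside 3.63% of all miRNAs. The groups did not overlap for 1 of the 24, miR-9-5p, beside 9.53% of all miRNAs above 0 in every sample. In such bulk samples, fewer cells of a type and less RNA per cell cannot be told apart.

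The 3p arms of the clusters were abundant in Ago and their levels did not separate WT from Tau tg mice. Summed over the 5 guides, their level was 40748, 29356.5 and 31132 RPM (WT 1 to 3) and 41642, 33159 and 32087 RPM (Tau tg 1 to 3). The highest values were those of WT 1 and Tau tg 1, and the groups overlapped. The WT mean of 33746 ± 6129 RPM and the Tau tg mean of 35629 ± 5234 RPM (SD, n = 3) gave a two-sided exact permutation p of 0.5. This test cannot go below 0.1 with 3 mice in each group. The difference of 1884 RPM changed sign to -687 RPM when scaled to miRNA reads only and to -1828 RPM with median-of-ratios scaling. It was -311 RPM without WT 2 and -1122 RPM without Tau tg 1, 577 RPM without WT 3, and 3119 to 5385 RPM without WT 1, Tau tg 2 or Tau tg 3.

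Some other measures moved with this sum. The share of all reads annotated as mature miRNA was also highest in WT 1 (90.4%) and Tau tg 1 (92.4%), against 82.7% to 87.9% in the other samples. The endothelium and vessel wall list was highest in the same samples, at 14931 RPM (WT 1) and 15397 RPM (Tau tg 1), against 8191 to 12109.5 RPM in the others. Within it, miR-145a-5p was highest in Tau tg 2, at 1774 RPM. No other marker list was highest in both of these samples. The oligodendrocyte list was at 11099 RPM in WT 1 against 13591 RPM in WT 2, and the red blood cell list at 556 against 1070 RPM. The part of these measures in the differences between samples was not tested. As a percentage of miRNA reads, the 7 members made up 4.75%, 3.82% and 4.13% (WT 1 to 3) and 4.66%, 3.96% and 3.89% (Tau tg 1 to 3).

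miR-24-3p was the most abundant member by mean level, at rank 19 of the 782 miRNAs. It was at 11749, 9761 and 9391 RPM (WT 1 to 3) and at 14871, 8166 and 10979.9 RPM (Tau tg 1 to 3). Tau tg mice held both the highest and the lowest value. miR-23b-3p followed at rank 26, with 11740.4, 7247 and 8515 RPM (WT 1 to 3) and 10153, 11595 and 8945 RPM (Tau tg 1 to 3). Its lowest value was that of WT 2, and the groups overlapped. miR-23a-3p, its paralog on chromosome 8, was at rank 45 and was the steadiest member. It was at 4490.2, 4303 and 4561 RPM (WT 1 to 3) and at 4193, 5369.98 and 3751 RPM (Tau tg 1 to 3), a 1.43-fold range.

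miR-27b-3p was at rank 36 with 6939, 4717 and 4185 RPM (WT 1 to 3) and 7284, 5257 and 4839.8 RPM (Tau tg 1 to 3). WT 1 and Tau tg 1 were the highest of their groups. miR-27a-3p, at rank 46, was at 5829, 3328 and 4481 RPM (WT 1 to 3) and at 5141, 2772 and 3572 RPM (Tau tg 1 to 3). Its 2.10-fold range was the widest among the 3p arms.

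The 5p arms of miR-24 are mostly discarded when Ago loads the 3p arm, and their levels were far lower, at ranks 220 and 239. miR-24-2-5p was at 304, 234 and 124 RPM (WT 1 to 3) and at 295, 162 and 157 RPM (Tau tg 1 to 3). miR-24-1-5p was at 172, 169 and 32.1 RPM (WT 1 to 3) and at 212, 236 and 180.4 RPM (Tau tg 1 to 3). Every Tau tg value of miR-24-1-5p lay above every WT value, by a narrow margin except over WT 3. That sample held 35 reads of it, against 249 to 1493 reads in the others.

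**Figure D1:**
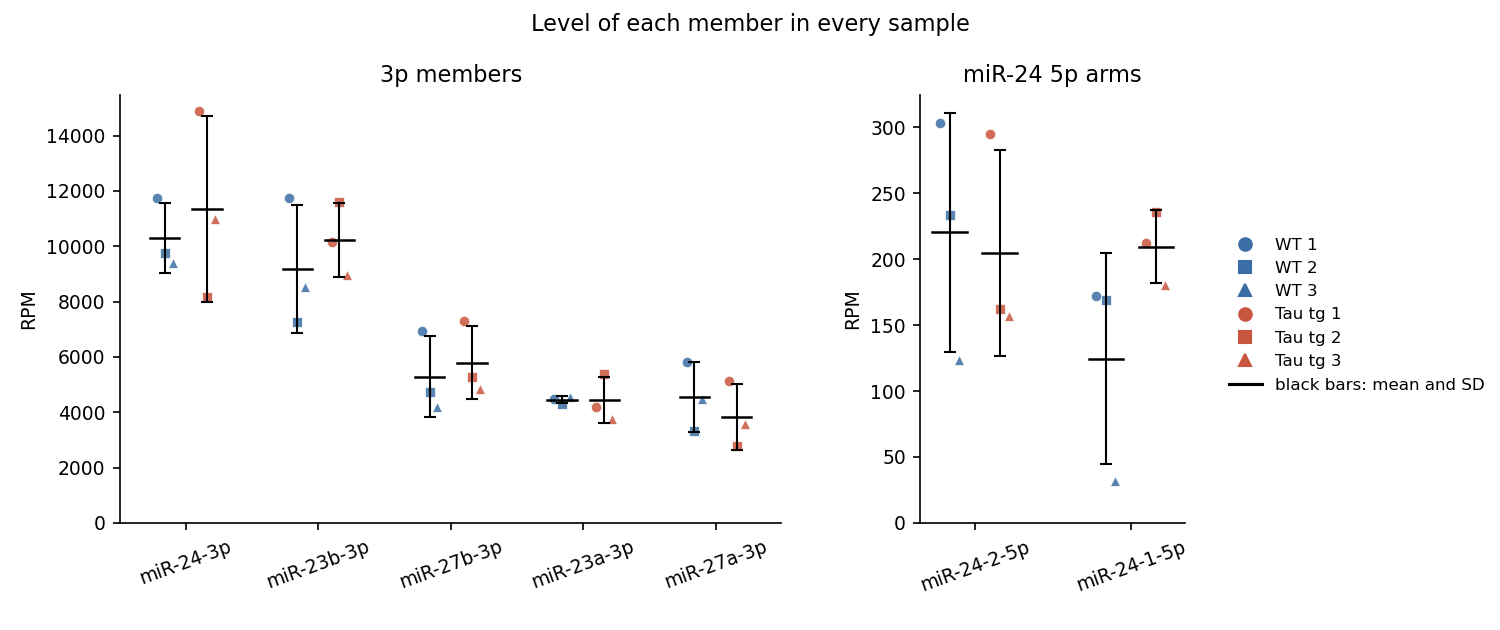
Level of each member in RPM for every sample, with the 3p arms in the left panel and the miR-24 5p arms in the right panel on its own scale. Points are single mice (WT blue, Tau tg red) and black bars show the mean and SD of 3 mice. The groups overlap for every member except miR-24-1-5p, whose lowest Tau tg value of 180.4 RPM lies above the highest WT value of 172 RPM.

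The order of the levels was firm at some steps only. miR-24-3p exceeded miR-23b-3p in 5 of 6 samples, at a 1.12-fold ratio of the means, and these neighbours did not differ beyond their spread. miR-23b-3p exceeded miR-27b-3p in 6 of 6 samples, by 1.75-fold. miR-27b-3p over miR-23a-3p, miR-23a-3p over miR-27a-3p and miR-24-2-5p over miR-24-1-5p each held in 4 of 6 samples. The lowest 3p arm, miR-27a-3p, was 19.7-fold above the higher 5p arm and exceeded it in 6 of 6 samples. These are levels in RPM of reads of like length, and ligation can favour some ends over others.

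Of the 7 members, 0 were called different between Tau tg and WT by limma at a Benjamini-Hochberg adjusted p under 0.05, and 0 had an unadjusted p under 0.05. Among all 689 miRNAs tested, 0% passed after adjustment and 3.63% passed unadjusted. edgeR and DESeq2 on reads recovered from the RPM values also counted 0 of the 7, before and after adjustment. Over all 689 miRNAs edgeR counted 4.21% unadjusted and 0% adjusted, and DESeq2 counted 5.37% and 0.726%. The members' median difference was 0.10 on the log2(RPM + 1) scale, beside a median of 0.25 over all 689 miRNAs. This overall shift was 0.09 with median-of-ratios scaling and 0.06 with quantile normalization, which draw samples toward a common level by design. Its cause was not tested.

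The differences (Tau tg minus WT, log2) by limma were small against their errors for the 3p arms. miR-24-3p differed by 0.10 ± 0.32 (SE), which is -0.14 relative to the median miRNA, with an adjusted p of 0.966. miR-23b-3p differed by 0.18 ± 0.31 (SE), or -0.07 relative to that median, with an adjusted p of 0.937. miR-27b-3p differed by 0.15 ± 0.32 (SE), or -0.10 in relative terms, with an adjusted p of 0.954. The sign of these 3 differences thus depended on the reference. miR-23a-3p differed by -0.02 ± 0.29 (SE; relative, -0.27; adjusted p = 0.990 by limma). miR-27a-3p had the most negative difference among the 3p arms, -0.26 ± 0.33 (SE; relative, -0.50; adjusted p = 0.896 by limma), and it was negative in all 18 fits, from -0.49 to -0.05.

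Among the 5p arms, miR-24-2-5p differed by -0.08 ± 0.47 (SE; adjusted p = 0.976 by limma). miR-24-1-5p had the largest difference of any member, 1.08 ± 0.60 (SE), with an unadjusted p of 0.0926 and an adjusted p of 0.896 by limma. It was positive in all 18 fits, with adjusted p-values from 0.634 to 0.958. WT 3 carried most of it, and without that sample the difference was 0.29. Without WT 2 the unadjusted p was 0.0263, with an adjusted p of 0.958. Non-overlap of the groups, seen in 1 of the 7 members, occurred in 9.53% of the 472 miRNAs that were above 0 in all samples.

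**Figure D2:**
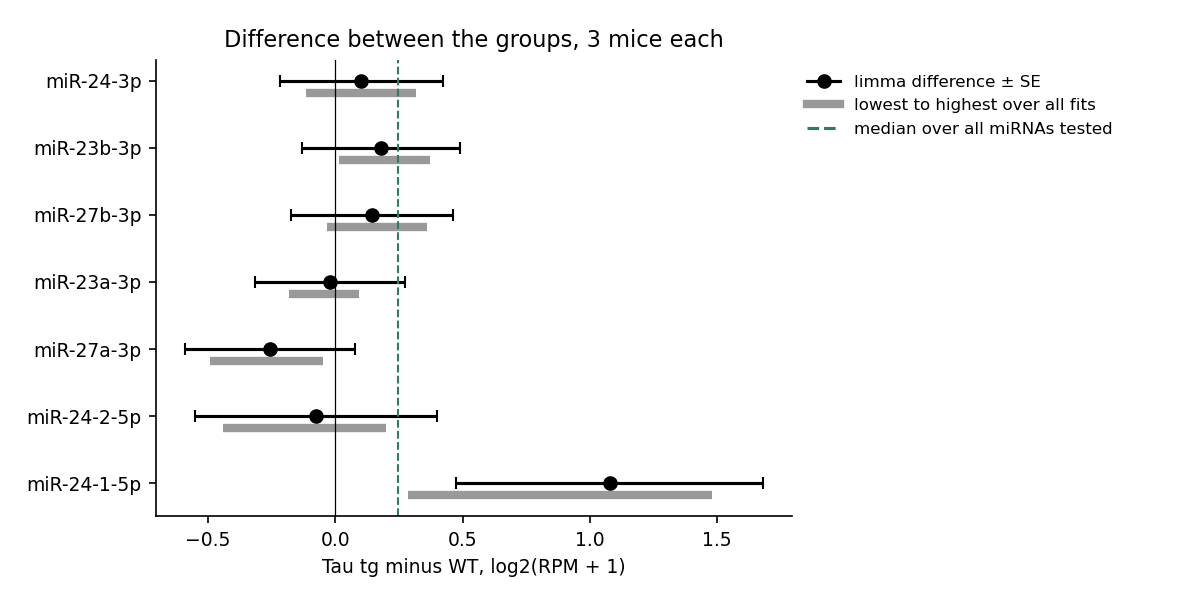
Difference between Tau tg and WT on the log2(RPM + 1) scale for each member. Points and bars show the limma estimate and its SE, grey bars the lowest to highest estimate over 18 fits, and the dashed line the median of 0.25 over all miRNAs tested. The 3p arms lie within 0.26 of 0, and miR-24-1-5p lies at 1.08 with the widest range.

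Because the paralogs differ at position 19, the share of each cluster could be read from the reads that reach it. miR-23a-3p made up 27.2%, 37.1% and 34.2% of such miR-23 reads (WT 1 to 3) and 28.5%, 31.0% and 29.2% (Tau tg 1 to 3). The chromosome 13 paralog led in every sample. The means were 32.9% ± 5.08 in WT and 29.5% ± 1.27 in Tau tg (SD, n = 3; exact permutation p = 0.4). Leaving out WT 1 moved the difference of -3.31 percentage points to -6.12, and leaving out WT 2 moved it to -1.18. miR-27a-3p made up 45.8%, 41.6% and 51.9% of miR-27 reads (WT 1 to 3) and 41.7%, 34.7% and 42.6% (Tau tg 1 to 3). Here the paralogs were closer to parity, and only in WT 3 did the chromosome 8 paralog lead. The means were 46.5% ± 5.18 and 39.6% ± 4.34 (SD, n = 3; exact permutation p = 0.3). This difference, -6.82 percentage points, shrank to -4.08 when WT 3 was left out and to -4.33 when Tau tg 2 was.

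The 5p arms of miR-24 gave another view of the same split. miR-24-2-5p, from chromosome 8, made up 63.8%, 58.1% and 79.4% of the 5p reads (WT 1 to 3) and 58.1%, 40.8% and 46.5% (Tau tg 1 to 3). All 3 WT mice were above parity, as was Tau tg 1, and the lowest WT value was just under the highest Tau tg value. The means were 67.1% ± 11.04 in WT and 48.5% ± 8.85 in Tau tg (SD, n = 3), a difference of -18.6 percentage points (exact permutation p = 0.2). Without WT 3 it was -12.5 percentage points. The 3 shares of chromosome 8 were all lower in Tau tg by mean, and none passed the test. The adjusted p was 0.7 for each over the 7 measures tested in this way. The order of the clusters also differed by member within a sample, since chromosome 13 led for miR-23 while chromosome 8 led for the 5p arms in 4 of 6 samples.

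**Figure D3:**
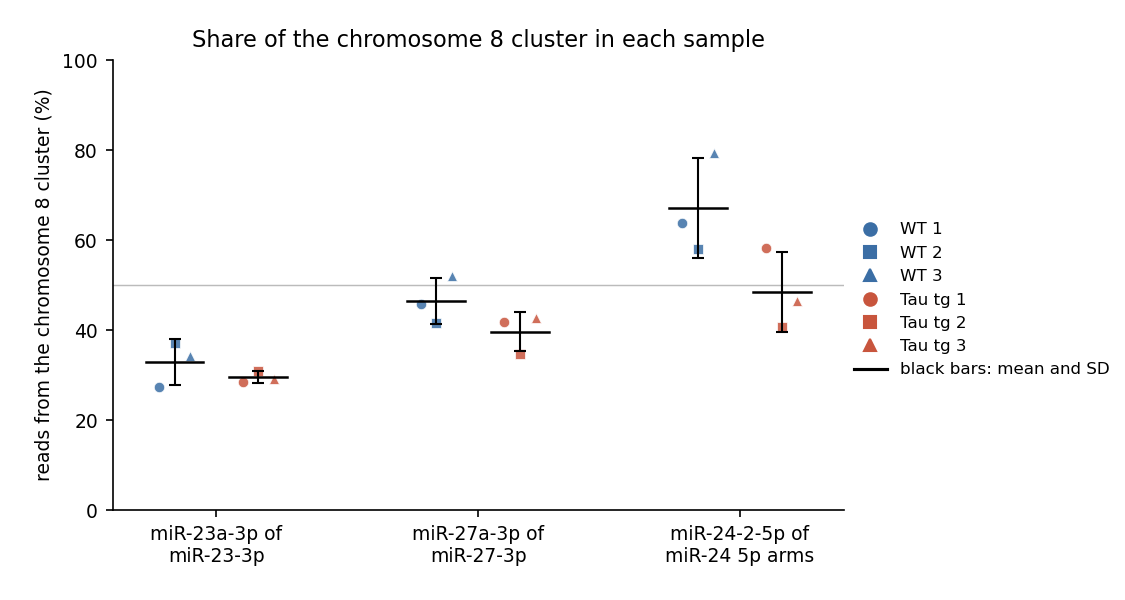
Percentage of reads from the chromosome 8 cluster for miR-23-3p, miR-27-3p and the miR-24 5p arms in every sample. Points are single mice and black bars show the mean and SD of 3 mice. miR-23a-3p stays between 27.2% and 37.1% in all samples, while miR-24-2-5p spans 40.8% to 79.4%.

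The 5p arms made up 3.89%, 3.96% and 1.63% of all miR-24 reads (WT 1 to 3) and 3.30%, 4.65% and 2.98% (Tau tg 1 to 3). WT 3 was again the lowest. The means were 3.16% ± 1.32 and 3.64% ± 0.886 (SD, n = 3; exact permutation p = 0.7). The difference of 0.480 percentage points became -0.284 without WT 3 and -0.023 without Tau tg 2, and it was 0.845 and 0.879 without WT 1 and WT 2 and 0.812 without Tau tg 3.

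The remaining arms of the clusters, miR-23a-5p, miR-23b-5p, miR-27a-5p and miR-27b-5p, are passenger strands. All 4 were above 0 in some sample, and their summed level was 45.9, 12.2 and 44.9 RPM (WT 1 to 3) and 19.1, 34.3 and 35.2 RPM (Tau tg 1 to 3). Of the 3 that reached a mean of 1 RPM, 0 had an unadjusted p under 0.05 by limma. miR-23a-5p did not overlap, with 2, 1 and 0 reads (WT 1 to 3) and 11, 7 and 28 reads (Tau tg 1 to 3). All 3 WT counts lay under the floor of 3 reads. Its adjusted p was 0.896 by limma.

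The toxicity of a short RNA in this system is read from its 6mer seed, nucleotides 2 to 7. Each of these seeds has a deposited viability, the average percent viability of murine cell lines after transfection with a short RNA that carries the seed. Among the members, miR-24-3p alone carried a usual seed under 50% viability. Its seed GGCUCA had a viability of 31.8%. UCACAG of miR-27-3p had 59.0%, UCACAU of miR-23-3p had 65.5% and UGCCUA of the miR-24 5p arms had 70.2%. The arms of the miR-24 hairpin thus stood at opposite ends of the members' range.

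By mean level, GGCUCA ranked 5th of 1237 seeds under 50% viability, after those led by miR-26a-5p, miR-128-3p, miR-16-5p and miR-124-3p. miR-24-3p reads with this seed made up 5.01%, 3.998% and 3.90% of all reads under 50% viability (WT 1 to 3) and 5.74%, 3.20% and 4.37% (Tau tg 1 to 3). The Tau tg mice enclosed the WT range, and the means were 4.30% ± 0.614 and 4.44% ± 1.27 (SD, n = 3). Of the members' own reads, 28.0%, 32.9% and 29.6% (WT 1 to 3) and 34.6%, 23.7% and 33.4% (Tau tg 1 to 3) had a seed under 50% viability.

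Summed over all reads with the same seed, members supplied 97.7% of GGCUCA, 98.7% of UCACAU, 97.0% of UCACAG and 93.8% of UGCCUA. The first of these stood at 11582, 9793 and 9313 RPM (WT 1 to 3) and at 14641, 7947 and 10916 RPM (Tau tg 1 to 3). It differed by 0.09 ± 0.35 (SE, log2) between the groups, with an adjusted p of 0.992 by limma. This difference was 0.35 with median-of-ratios scaling (adjusted p = 0.984 by limma). It was 0.54 by edgeR (adjusted p = 0.997) and 0.44 by DESeq2 (adjusted p = 0.999). In these fits the scaling was estimated from the seeds, whereas in the miRNA fits it was estimated from the miRNAs. There miR-24-3p itself was at -0.059 with median-of-ratios scaling, 0.018 by edgeR and -0.031 by DESeq2. Of the 4 seeds, 0 had an unadjusted p under 0.05 by limma, edgeR or DESeq2, beside 4.31% of the 3987 seeds tested by limma, and 0 passed after adjustment, beside 0.125%. The shares over all seeds were 3.56% unadjusted and 0.0502% adjusted by edgeR, and 3.99% and 0.251% by DESeq2. Their median difference was 0.10, beside a median of -0.16 over all seeds tested. That median was 0.06 with median-of-ratios scaling, where the members' median was 0.36.

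A read that starts late or early, or has a substituted base near its start, carries another seed than the usual one. Reads with any other seed made up 3.95%, 4.30% and 4.64% of the members' reads (WT 1 to 3) and 4.25%, 5.36% and 3.66% (Tau tg 1 to 3). The means were 4.30% ± 0.345 and 4.42% ± 0.865 (SD, n = 3; exact permutation p = 0.9). The difference of 0.126 percentage points became -0.344 without Tau tg 2 and -0.048 without WT 1. For miR-24-3p the usual seed made up 96.8%, 96.8% and 96.9% of reads (WT 1 to 3) and 96.5%, 95.1% and 97.0% (Tau tg 1 to 3).

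Examples of reads that lack the first base, 1 for each member listed, are shown because a shift of 1 base changes their viability. Capitals mark the 6mer seed at positions 2 to 7 of each read.
miR-24-3p: gGCUCAGuucagcaggaacagu
miR-23b-3p: uCACAUUgccagggauuaccacu
miR-24-1-5p: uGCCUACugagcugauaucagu
miR-27a-3p: uCACAGUggcuaaguuccgc
miR-27b-3p: uCACAGUggcuaaguucugc

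Loss of the first base turned the GGCUCA seed of miR-24-3p (31.8% viability) into GCUCAG (77.3%). These reads made up 1.22%, 0.937% and 1.77% of miR-24-3p (WT 1 to 3) and 2.02%, 2.90% and 1.86% (Tau tg 1 to 3). Every Tau tg value lay above every WT value, with means of 1.31% ± 0.422 and 2.26% ± 0.558 (SD, n = 3). Of the members' 31 other seeds that were above 0 in all samples, 2 had shares that did not overlap between the groups, beside 9.9% of 626 such seeds over all miRNAs with a mean of at least 100 RPM. The other was ACAUUG of miR-23a-3p, at 0.271%, 0.142% and 0.422% (WT 1 to 3) and 0.648%, 0.561% and 0.469% (Tau tg 1 to 3). Summed over all RNAs, the GCUCAG seed overlapped between the groups, whereas 11% of the 1966 seeds above 0 in every sample did not. Members supplied 59.6% of its reads.

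miR-24-1-5p had the least uniform start of any member. The usual seed UGCCUA made up 68.5%, 29.3% and 62.9% of its reads (WT 1 to 3) and 61.6%, 92.2% and 73.2% (Tau tg 1 to 3). The seed GCCUAC, from loss of the first base, has a viability of 39.1%, and it made up 9.78%, 67.1% and 17.1% (WT 1 to 3) and 12.3%, 6.03% and 13.8% (Tau tg 1 to 3). WT 2 stood apart, and the groups overlapped. In miR-24-2-5p, which shares the first 16 bases, GCCUAC made up 0.290% to 3.55% of reads (WT 1 to 3) and 0% to 1.35% (Tau tg 1 to 3), lower than in miR-24-1-5p in 6 of 6 samples.

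The paralogs of miR-23 also differed in their starts within every sample. Loss of the first base gave CACAUU (75.6% viability), which made up 4.84%, 4.21% and 5.30% of miR-23b-3p (WT 1 to 3) and 5.31%, 5.63% and 3.13% (Tau tg 1 to 3). In miR-23a-3p it made up 0.855%, 1.12% and 1.75% (WT 1 to 3) and 1.19%, 0.857% and 0.927% (Tau tg 1 to 3), lower in 6 of 6 samples. The reverse held for reads with 1 base more at the start, whose seed AUCACA (82.0% viability) made up 0.756% to 1.76% of miR-23a-3p and 0.159% to 0.710% of miR-23b-3p, higher for miR-23a-3p in 6 of 6 samples. Both members come from the same libraries, and these shares are given as a description.

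Loss of the first base of miR-27 gave CACAGU (49.5% viability), the 6mer seed of miR-128-3p, an abundant miRNA of neurons. It made up 0.201% to 1.28% of miR-27a-3p reads and 0.655% to 2.64% of miR-27b-3p reads over the 6 samples. Members supplied 0.362% of all reads with this seed, which was at 14189, 31375 and 41855 RPM (WT 1 to 3) and at 30384, 34076 and 34625 RPM (Tau tg 1 to 3).

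**Figure D4:**
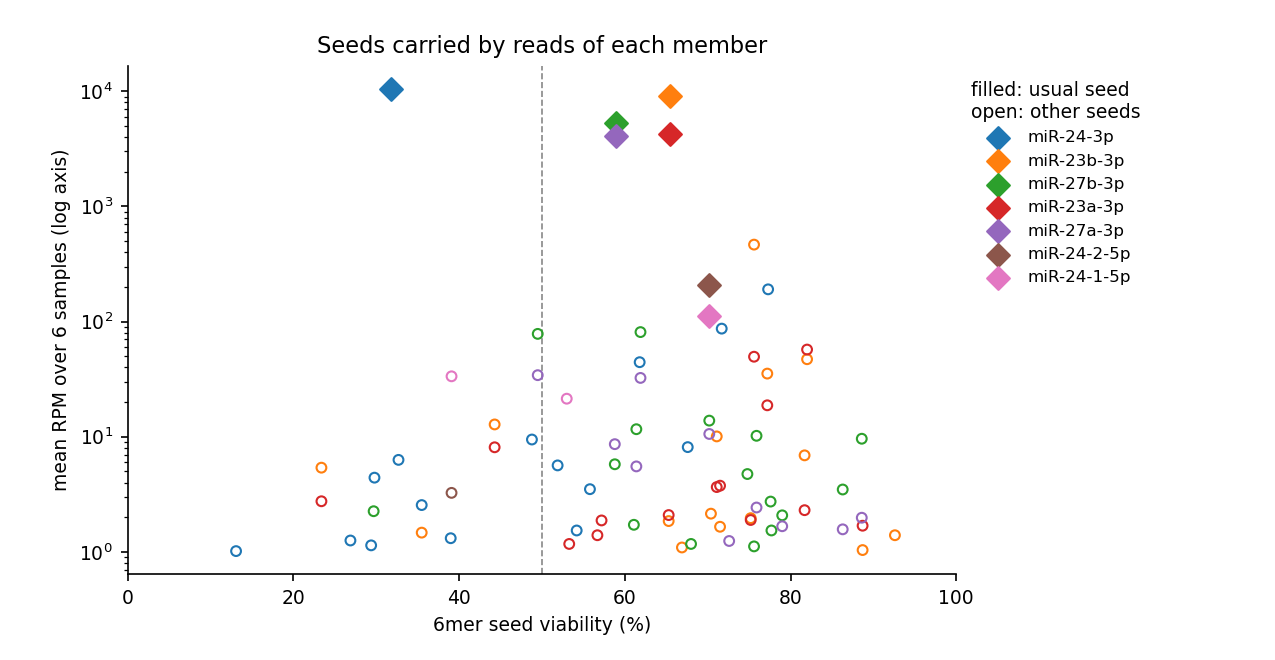
Mean level over the 6 samples on a log axis against 6mer seed viability for every seed that reached a mean of 1 RPM in reads of a member. Filled diamonds are the usual seeds and open circles the others, and the dashed line marks 50% viability. miR-24-3p holds the only usual seed left of the line, at 31.8%, and its most abundant other seed lies at 77.3%.

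The 3′ ends varied far more than the starts. The length most common in miR-27b-3p was 21 nt, which made up 62.6% of its reads as a mean over samples, and 21 nt also led in miR-27a-3p with 54.6%. In miR-23a-3p, 22 nt made up 36.1% and 21 nt 32.1%. miR-23b-3p extended further, with 17.2% at 23 nt and 12.5% at 24 nt, against 10.5% and 1.41% for miR-23a-3p. miR-24-3p had separate groups of reads at 20 nt (19.2%), 22 nt (32.9%) and 23 nt (33.5%), with fewer at 21 nt (10.1%). The mean length of the 3p arms was 21.6 nt in all WT mice and 21.5 to 21.6 nt in the Tau tg mice (exact permutation p = 0.4).

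Part of this came from bases added after cutting. Uridines that the hairpin does not encode ended 33.5% of miR-24-3p reads, rank 8 among 230 miRNAs with a mean of at least 100 RPM and a hairpin to compare with. The median over these miRNAs was 3.34% and the 90th percentile was 16.7%. miR-27a-3p (19.0%, rank 20) was also above the 90th percentile. miR-23b-3p (16.4%, rank 25), miR-27b-3p (8.83%, rank 51) and miR-23a-3p (5.86%, rank 73) were between the median and that percentile. In the 5p arms the share was 0.183% for miR-24-1-5p and 0% for miR-24-2-5p, so the arms of the same hairpin lay far apart.

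Per sample, U tails ended 34.7%, 29.6% and 35.7% of miR-24-3p reads (WT 1 to 3) and 34.8%, 29.9% and 35.0% (Tau tg 1 to 3). The group means of 33.3% ± 3.28 and 33.2% ± 2.89 (SD, n = 3) differed by far less than the mice within a group. For miR-23b-3p the shares were 17.1%, 18.7% and 16.1% (WT 1 to 3) and 14.6%, 18.3% and 13.3% (Tau tg 1 to 3). For miR-23a-3p they were 4.83%, 3.02% and 5.59% (WT 1 to 3) and 5.20%, 8.94% and 7.04% (Tau tg 1 to 3), and both groups overlapped. miR-23b-3p carried more U tails than miR-23a-3p in 6 of 6 samples. miR-27a-3p carried more than miR-27b-3p in 6 of 6 samples, with 15.004% to 26.1% against 6.65% to 10.9%. The more tailed paralog was thus on chromosome 13 for miR-23 and on chromosome 8 for miR-27. No class of tail separated WT from Tau tg mice in any member.

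**Figure D5:**
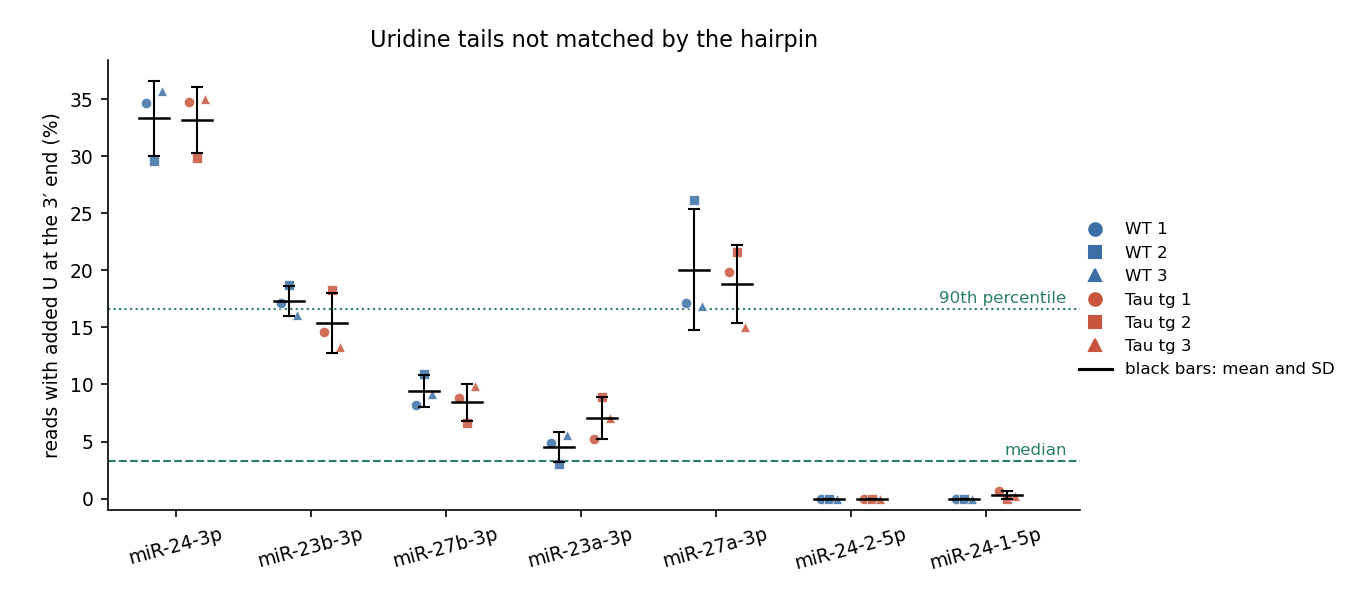
Percentage of reads of each member that end in uridines not encoded by the hairpin, in every sample. Points are single mice, black bars show the mean and SD of 3 mice, and the green lines mark the median (3.34%) and the 90th percentile (16.7%) over 230 miRNAs. miR-24-3p stays at 29.6% to 35.7% in all samples while the 5p arms stay near 0.

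The most abundant reads of miR-24-3p are shown because a tailed and an untailed read lead together. Capitals mark the base not encoded by the hairpin.
miR-24-3p, 23 nt: uggcucaguucagcaggaacagU
miR-24-3p, 22 nt: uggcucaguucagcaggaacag
miR-24-3p, 20 nt: uggcucaguucagcaggaac

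The 23-nt read with the added U was at 3685, 2655 and 2870.3 RPM (WT 1 to 3) and at 4498, 1985 and 3373 RPM (Tau tg 1 to 3). The 22-nt read was at 3367, 3329.75 and 2527 RPM (WT 1 to 3) and at 4267, 2250.5 and 3206 RPM (Tau tg 1 to 3). Their means over the 6 samples were 3178 and 3158 RPM, and the tailed read was the higher in 4 of 6 samples. The 20-nt read had a mean of 1799.9 RPM. The 3 most abundant sequences of a member made up 62.5% of its reads for miR-24-1-5p, 69.1% to 78.5% for the 3p arms and 97.3% for miR-24-2-5p.

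Across all sequences of the members, 449 of 818 reached a mean of 1 RPM. Of these, 0 passed an adjusted p of 0.05 by limma, edgeR or DESeq2, beside 0.0277% of the 36070 sequences tested by limma. Over all sequences edgeR called 0.136% and DESeq2 1.27%. At an unadjusted p under 0.05, limma counted 12 member sequences, beside 2.23% of all sequences. It placed 10 of them higher in Tau tg, beside 1.44% of all, and 2 lower, beside 0.787%. By the other tools most lay in the opposite direction. edgeR counted 8, beside 7.11% of all sequences, with 3 higher (0.993% of all) and 5 lower (6.12% of all). DESeq2 counted 20, beside 9.27% of all sequences, with 6 higher (0.721% of all) and 14 lower (8.55% of all). Of the 190 member sequences above 0 in every sample, 18 did not overlap between the groups, beside 9.22% of all 5704 such sequences.

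Among the 110 member sequences that reached a mean of 10 RPM, 3 had an unadjusted p under 0.05 by limma, and all were higher in Tau tg. The share of all sequences at that level with such a p was 11.4%, so the members' count lay below the background. That background depended on the fit. A fit to sequences at that level alone counted 2 of 110 member sequences, beside 167 of all 3899. The 3 reads are shown in full because they differ from the usual reads only at their ends.
miR-24-1-5p, 22 nt: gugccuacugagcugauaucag
miR-23b-3p, 20 nt: ucacauugccagggauuacc
miR-23a-3p, 20 nt: cacauugccagggauuucca

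The miR-24-1-5p read ends 1 base before the RefSeq form. It had 18, 4 and 3 reads in WT 1, 2 and 3 (8.43, 2.71 and 2.75 RPM) and 75, 84 and 95 reads in Tau tg 1, 2 and 3 (10.7, 70.3 and 38.9 RPM). Tau tg 1 lay close to WT 1, and the difference was 2.66 ± 0.94 (SE, log2), with an unadjusted p of 0.00482 and an adjusted p of 0.584 by limma. The miR-23b-3p read lacks the first base, so it carries CACAUU. It was at 46.8, 41.3 and 16.5 RPM (WT 1 to 3) and at 118, 132 and 56.9 RPM (Tau tg 1 to 3), a difference of 1.56 ± 0.72 (SE, log2; unadjusted p = 0.0301, adjusted p = 0.584 by limma). The miR-23a-3p read lacks the first 2 bases and carries ACAUUG. This read had few counts, at 24, 3 and 2 reads (WT 1 to 3) and 118, 29 and 35 reads (Tau tg 1 to 3). It was at 11.2, 2.03 and 1.83 RPM (WT 1 to 3) and at 16.8, 24.3 and 14.3 RPM (Tau tg 1 to 3). The difference was 2.01 ± 0.999 (SE, log2; unadjusted p = 0.0443, adjusted p = 0.584 by limma).

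Over the 6 samples the members did not all move together. The likeness of a pair of profiles was measured as the mean absolute difference of their log2(RPM + 1) values after each was centred on its own mean. The closest pairs were miR-24-3p with miR-27b-3p at 0.18, miR-23a-3p with miR-23b-3p at 0.19 and miR-23b-3p with miR-27b-3p at 0.20. miR-23a-3p and miR-27a-3p, which lie 1 after the other on chromosome 8, differed by 0.36. miR-24-1-5p was the least like the others, at 0.58 from miR-24-2-5p and 0.61 to 0.84 from the 3p arms. Among 269 other miRNAs with a mean of at least 100 RPM, those most like the summed 3p arms were miR-16-5p (0.07), miR-222-3p (0.08), miR-15b-5p (0.09), miR-126a-5p (0.09) and miR-139-5p (0.10), beside a median of 0.35. All points share their libraries, and WT 1 and Tau tg 1, the samples with the largest miRNA shares, were also high in miR-16-5p, at 13808 and 13191 RPM against 10216 to 12649 RPM in the others.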

How the data were processed

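Ago-bound short RNAs of 3 WT and 3 Tau tg mouse brains were analysed, with groups and numbers as in the titles of the samples. As the study describes it, the authors trimmed reads (with Trim Galore per the submitters' processing notes), compiled unique sequences with the SPOROS pipeline, removed rare reads, annotated the rest by BLAST and removed artificial sequences, so low values are incomplete. The deposited values are RPM, scaled by the authors to the library size. The authors' 6mer seed viability score, a percentage that can pass 100, was used as deposited. 100% of the RPM values were whole multiples of 1 read (tolerance 0.05 read), which gave back counts of 998248 to 6879551 reads per sample. On these recovered counts edgeR called 0 miRNAs and 49 sequences at an adjusted p under 0.05, and DESeq2 called 5 and 459.

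Sequences were summed by the deposited miRNA name or 6mer seed and tested on the log2(RPM + 1) scale by limma 3.58.1 with its trend option, two-sided, for a mean of at least 1 RPM, with Benjamini-Hochberg adjustment over all tested. Fold changes on this scale understate those of low values. Single values per sample were compared by exact permutation tests over 20 assignments of the samples. The p-values measure the spread between these 6 samples. Tails were bases after the longest stretch of at least 15 nt found in the RefSeq hairpin, with at most 3 added bases. Named were all 7 members, the 3 most abundant sequences of each (summarised), up to 3 sequences in each direction with the smallest unadjusted p under 0.05 and a mean of at least 10 RPM, the 5 miRNAs most like the summed 3p arms, the other arms, miR-128-3p and the marker lists. The shifted reads printed were chosen after their values were seen. The members and lists were chosen with earlier results of these data known. Fits were tested on simulated data. The simulated spread between samples (dispersion) was below that estimated by edgeR for seeds (1.56) and sequences (4.87), so those levels were not covered. The software was R 4.3.3 with edgeR 4.0.16 and DESeq2 1.42.0, and Python 3.11.15 with pandas 2.3.3, NumPy 2.4.6, Matplotlib 3.10.9 and SciPy 1.17.1. Alternatives were other pseudocounts, filters, scalings, read lengths and tools, leaving out each sample and a replicate block. The transgene was not measured in this table.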

Additional observations from a re-analysis of the deposited data

How the results depend on the processing

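The count of members past an adjusted p of 0.05 was 0 for miRNAs, seeds and sequences under every alternative run. The count of member sequences at an unadjusted p under 0.05 was 12, and it was 5 with a pseudocount of 5, 2 with a mean of at least 10 RPM, 20 with DESeq2 and 5 to 19 with 1 sample left out. For the 7 miRNAs the count at such a p was 0, beside 25 of all 689. With 1 sample left out it was 0 to 1, and the 1 came without WT 2, beside 31 of all 693. With median-of-ratios scaling the log2 difference changed sign for miR-24-3p (-0.059) and miR-27b-3p (-0.016), as it did with DESeq2 (-0.031 and -0.015), and with quantile normalization for miR-23a-3p (0.012). The seed UCACAG, at -0.02, was at 0.24 with median-of-ratios scaling, 0.020 with quantile normalization, 0.36 with edgeR and 0.27 with DESeq2. In the same order, GGCUCA, at 0.09, was at 0.35, 0.17, 0.54 and 0.44, and UCACAU, at 0.10, was at 0.37, 0.010, 0.43 and 0.35. Each of these scalings was estimated anew for miRNAs, seeds and sequences. Values of a seed and of its miRNA under the same setting are thus not on the same scale. The summed 3p arms were at -1828 RPM with median-of-ratios scaling and -687 RPM when scaled to miRNA reads only. With 1 sample left out, differences that changed sign ran from -1122 to 5385 RPM for the summed 3p arms, from -0.284 to 0.879 percentage points for the 5p share of miR-24 and from -0.344 to 0.508 percentage points for reads with another seed. On the log2 scale they ran from -0.17 to 0.092 for miR-23a-3p, -0.11 to 0.32 for miR-24-3p, -0.031 to 0.36 for miR-27b-3p, -0.44 to 0.20 for miR-24-2-5p, -0.0039 to 0.23 for UCACAU, -0.22 to 0.19 for UCACAG and -0.13 to 0.31 for GGCUCA. The cause was not tested. Reading the paralog only from reads that also match the next 2 bases, chosen after seeing the data, gave differences of -3.94 and -6.67 percentage points for the shares of miR-23a-3p and miR-27a-3p, and taking the deposited names instead kept their direction. A replicate block changed no call: 0 members passed, and 10 member sequences had an unadjusted p under 0.05, beside 809 of all 36070. With that block the summed 3p arms differed by 1884 RPM, with an exact sign-flip p of 0.25, the smallest that 3 differences can give. Samples with the same number did not deviate together (correlations of their deviations were -0.002, -0.0693 and 0.0413), so the numbers were not taken as pairs. Depth limits the 5p arms most, with 35 reads of miR-24-1-5p in WT 3.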

Other observations

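A further 576 sequences came from the 6 hairpins of the clusters but carried no mature miRNA name in the deposited table. Their summed level was 849, 719.7 and 725 RPM in WT 1, 2 and 3 and 971, 854 and 693 RPM in Tau tg 1, 2 and 3. The groups overlapped, and these reads enter none of the values given for the members. Of the reads that carried the name miR-23a-3p, 1.96% ended before the base that differs from miR-23b-3p, as did 0.570% of those named miR-27b-3p and none of those named miR-23b-3p or miR-27a-3p. The deposited names thus gave such short reads to miR-23a-3p and miR-27b-3p.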
